A study of Mus musculus with 6 samples.

Results

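The genes examined here mark the mural cells of blood vessels, which are the pericytes of capillaries and the smooth muscle cells of arterioles. The 10 genes were chosen by symbol in the GENCODE M21 annotation, out of 35523 genes in the deposited tables. They comprise 6 pericyte genes (*Pdgfrb*, *Rgs5*, *Kcnj8*, *Abcc9*, *Vtn* and *Higd1b*) and 4 smooth muscle genes (*Acta2*, *Tagln*, *Myh11* and *Notch3*). Forebrain RNA came from 3 *Slc13a4*+/- mice (Nas2Del_Het_1024, Nas2Del_Het_1025 and Nas2Del_Het_1027) and 3 wild-type littermate controls (Nas2Del_WT_1016, Nas2Del_WT_1018 and Nas2Del_WT_1026). All mice were C57BL/6 at postnatal day 20 (P20), and the *Slc13a4*+/- mice came from *Slc13a4*+/- sires and wild-type dams. The heterozygous mice lack 1 allele of this sodium-coupled sulfate transporter gene in the whole body, not in mural cells alone, and the sources used here do not say which part of the gene is deleted. The whole forebrain was pooled into 1 library per mouse, so a lower value may reflect fewer cells of a type or less RNA per cell, and these cannot be told apart.

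Pericytes sit within the basement membrane of brain capillaries, where PDGF-B from endothelial cells holds them through the receptor encoded by *Pdgfrb*. They support the blood-brain barrier, and their ATP-sensitive potassium channel couples metabolism to capillary tone. Smooth muscle cells wrap arterioles and contract through smooth muscle actin and myosin, under the control of serum response factor and of Notch signalling. *Pdgfrb*, *Rgs5* and *Notch3* are expressed by both mural cell types, so the division of the list is not strict.

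The estimated counts of a mouse summed to 69260309 to 78070813 in the *Slc13a4*+/- group and 60340337 to 80410582 in the wild-type group. *Slc13a4* had 5.60, 6.57 and 5.41 CPM (estimated counts scaled to library size after TMM normalization) in the *Slc13a4*+/- mice, against 10.4, 9.36 and 8.23 CPM in the wild-type mice. All 3 heterozygous values lay below all 3 wild-type values. The log2 fold change of -0.67 (SE 0.11) had an edgeR adjusted p of 0.499 and a DESeq2 adjusted p of 0.0024. Nas2Del_WT_1026 stood apart, with a chi-square per gene of 39.4 and 33.8 against the other wild-type mice, which had 7.0 between them. Against the *Slc13a4*+/- mice, in the order given above, it had lower values of 17.9, 22.1 and 15.0, so it lay nearer to the other genotype than to its own. Nas2Del_WT_1016 alone had Y-linked *Ddx3y*, at 106 CPM before TMM normalization, and every other mouse had 0 to 0.033 CPM. By this gene it was the only male, so a fit without Nas2Del_WT_1016 also leaves out the only male. The part of sex in the results was not tested. Values of the mural genes and counts of the gene lists that moved most without a mouse are given with and without it. The share of counts on retained-intron transcripts was 2.03%, 2.45% and 2.15% in the *Slc13a4*+/- mice, against 1.86%, 2.02% and 1.81% in the wild-type mice. The groups did not overlap on this share, and its part in the results was not tested. Whether the share reflects RNA quality was not tested either, and the paper reports that every sample passed its check of RNA integrity.

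None of the 10 mural genes passed the threshold of an adjusted p under 0.1 between *Slc13a4*+/- and wild-type forebrains. The edgeR quasi-likelihood test called 0 of them, against 0.00585% of the 17096 genes tested, and the DESeq2 Wald test called 0, against 0.487% of 17659. *Acta2* and *Vtn*, 2 of the 10 and both lower, reached an unadjusted p under 0.05 in edgeR, against 9.15% of all tested genes (4.17% lower and 4.98% higher). The groups did not overlap for the same 2 genes, against 15.0% of all tested genes (7.70% lower and 7.26% higher). The median log2 fold change of the 10 was -0.05, with 6 below 0, and that of all tested genes was -0.0045, with 52.2% below 0. All 10 genes passed the filter on low counts.

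**Figure D1:**
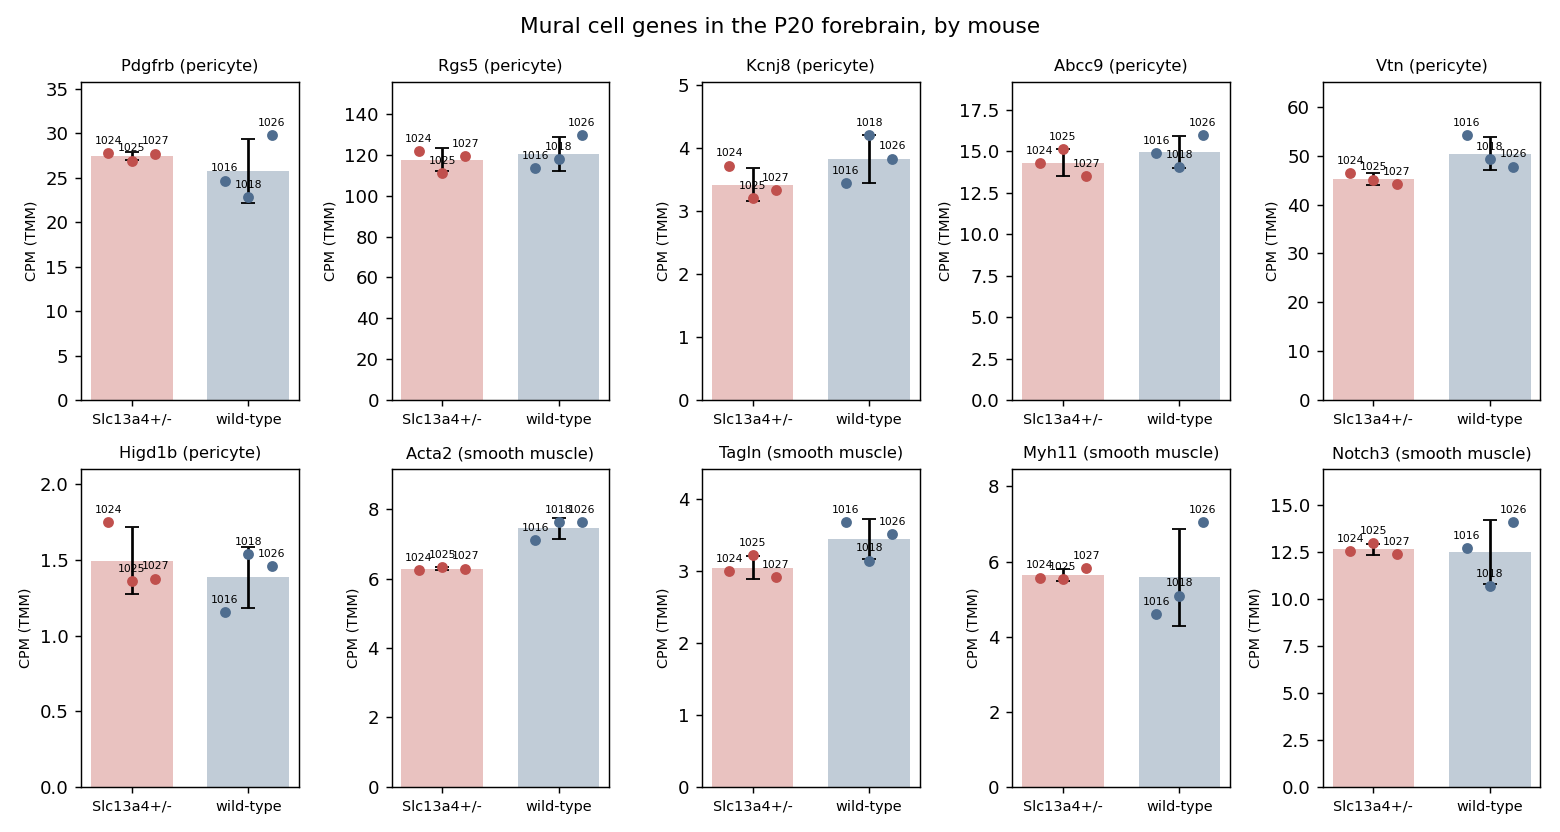
CPM after TMM normalization (y axis, from 0) of each mural gene in the Slc13a4+/- and the wild-type group. Each point is 1 mouse with its number, and the bar with its error shows the mean ± SD of 3 mice. The Slc13a4+/- points lie below all wild-type points for Acta2 and Vtn and overlap with them for the other 8 genes.

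*Pdgfrb* encodes the receptor for PDGF-B, on which the recruitment of pericytes depends. It had 27.7, 26.9 and 27.7 CPM in the *Slc13a4*+/- mice, in the order given above, against 24.7, 22.8 and 29.7 CPM in the wild-type mice. The heterozygous mice lay close together inside a wide wild-type range. The log2 fold change was 0.09 (SE 0.09, edgeR adjusted p 0.774), with a 95% interval of -0.11 to 0.28. Leaving out Nas2Del_WT_1026, which held the highest value, gave 0.21 (SE 0.05, edgeR adjusted p 0.106). DESeq2 with length offsets then called *Pdgfrb* higher (0.20, adjusted p 0.0966), where 6.54% of the genes that it gave an adjusted p were called. Without Nas2Del_WT_1018, which held the lowest value, the edgeR change was 0.010 (adjusted p 0.98).

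*Rgs5*, a regulator of G protein signalling that is abundant in pericytes, had the highest CPM of the 10. It had 122, 111 and 120 CPM in the *Slc13a4*+/- mice, against 114, 118 and 130 CPM in the wild-type mice. The ranges overlapped, and the log2 fold change was -0.03 (SE 0.06, edgeR adjusted p 0.875), with a 95% interval of -0.17 to 0.10. *Higd1b*, a pericyte-enriched gene of the hypoxia-inducible domain family, had the fewest counts. It had 1.75, 1.36 and 1.38 CPM in the *Slc13a4*+/- mice, against 1.16, 1.54 and 1.46 CPM in the wild-type mice. Its interval was the widest of the 10, at -0.27 to 0.49 around a log2 fold change of 0.11 (SE 0.17, edgeR adjusted p 0.853).

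*Kcnj8* and *Abcc9* encode Kir6.1 and SUR2, the pore and the regulatory subunit of the ATP-sensitive potassium channel of mural cells. On chromosome 6 (GRCm38, minus strand) they lie side by side, *Kcnj8* from 142564837 to 142571614 and *Abcc9* from 142587862 to 142702315, on the same chromosome as *Slc13a4* (35267957 to 35308131). *Kcnj8* had 3.72, 3.21 and 3.33 CPM in the *Slc13a4*+/- mice, against 3.44, 4.20 and 3.83 CPM in the wild-type mice, a log2 fold change of -0.16 (SE 0.11, edgeR adjusted p 0.663). It was -0.089 without Nas2Del_WT_1018 in edgeR and -0.31 without Nas2Del_WT_1016 in DESeq2 with length offsets. *Abcc9* had 14.3, 15.1 and 13.5 CPM in the *Slc13a4*+/- mice, against 14.9, 14.05 and 15.98 CPM in the wild-type mice, a log2 fold change of -0.07 (SE 0.06, edgeR adjusted p 0.778). Neither subunit separated the genotypes. Per length, the TPM of *Kcnj8* divided by that of *Abcc9* was 0.753, 0.564 and 0.684 in the *Slc13a4*+/- mice, against 0.711, 0.884 and 0.701 in the wild-type mice. The channel subunits *Kcnj11* and *Abcc8*, which form the channel of neurons and endocrine cells, had log2 fold changes of 0.07 (SE 0.05) and 0.04 (SE 0.05), with edgeR adjusted p of 0.697 and 0.813. Of these, 1 was higher at an unadjusted p under 0.05 without Nas2Del_WT_1026, and 0 were over all 6 mice. Without that mouse, 1635 of all 17337 tested genes were higher at that level.

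*Vtn* encodes vitronectin, an adhesion protein of plasma and matrix that pericytes make in the brain. It had 46.5, 45.1 and 44.2 CPM in the *Slc13a4*+/- mice, against 54.2, 49.4 and 47.8 CPM in the wild-type mice. Each heterozygous value lay below each wild-type value, although the gap between the highest heterozygous mouse and Nas2Del_WT_1026 was small. The means were 45.3 ± 1.17 CPM in the *Slc13a4*+/- mice and 50.4 ± 3.35 CPM in the wild-type mice (SD, n = 3 each). This was a log2 fold change of -0.16 (SE 0.05, edgeR adjusted p 0.499), or -0.17 in DESeq2 with length offsets (adjusted p 0.420). It was -0.10 without Nas2Del_WT_1016 (edgeR adjusted p 0.814), which had the highest value. Without Nas2Del_WT_1026 it was -0.19 (edgeR adjusted p 0.114), and DESeq2 with length offsets then called it lower, at -0.20 (adjusted p 0.0445). Of 7 integrins and partners of vitronectin, 0 were called, 2 were above 0 and 5 below (median -0.02), and none had an unadjusted p under 0.05. Without Nas2Del_WT_1026, 1 was higher and 1 lower at that level, and without Nas2Del_Het_1024, 1 was lower. Over all tested genes, 1635 of 17337 were higher and 1491 lower without Nas2Del_WT_1026, and 452 of 17309 were lower without Nas2Del_Het_1024. The smallest p among the 7 vitronectin partners were those of *Itgb5* (log2 fold change -0.09, SE 0.04, edgeR adjusted p 0.568) and *Itgb3* (0.17, SE 0.09, adjusted p 0.586).

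*Acta2*, which encodes smooth muscle alpha actin, had the largest difference of the 10 genes on the log2 scale. It had 6.24, 6.32 and 6.28 CPM in the *Slc13a4*+/- mice, against 7.11, 7.63 and 7.62 CPM in the wild-type mice. The 3 heterozygous mice were nearly equal and lay below every wild-type mouse. The means were 6.28 ± 0.039 CPM in the *Slc13a4*+/- mice and 7.45 ± 0.30 CPM in the wild-type mice (SD, n = 3 each), a fold of 0.843 with a 95% interval of 0.762 to 0.933. On the log2 scale the change was -0.25 (SE 0.06, edgeR adjusted p 0.499), and *Acta2* ranked 137 of the 17096 tested genes by p. Leaving out any 1 mouse gave -0.27 to -0.23 in edgeR. Offsets for the average transcript length gave -0.42 in edgeR (adjusted p 0.581) and in DESeq2 (SE 0.12, adjusted p 0.133).

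*Tagln*, which encodes the actin-binding protein transgelin, had 3.0, 3.23 and 2.91 CPM in the *Slc13a4*+/- mice, against 3.68, 3.14 and 3.51 CPM in the wild-type mice. Nas2Del_Het_1025 lay above Nas2Del_WT_1018, so the groups overlapped, and the log2 fold change was -0.18 (SE 0.10, edgeR adjusted p 0.616). The gene overlaps the end of *Pcsk7* on the opposite strand, and the sources used here do not give the strand setting of the counting. Before TMM normalization, *Pcsk7* had 20.2, 21.5 and 21.3 CPM in the *Slc13a4*+/- mice, against 19.9, 19.9 and 19.6 CPM in the wild-type mice.

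*Myh11*, the smooth muscle myosin heavy chain, had 5.57, 5.53 and 5.82 CPM in the *Slc13a4*+/- mice, against 4.6, 5.10 and 7.05 CPM in the wild-type mice. The heterozygous values fell between the wild-type ones. The log2 fold change was 0.01 (SE 0.15, edgeR adjusted p 0.988), and it was 0.22 without Nas2Del_WT_1026 (SE 0.09, adjusted p 0.231) and -0.11 without Nas2Del_WT_1016 (adjusted p 0.917). *Notch3*, the Notch receptor of mural cells, had 12.6, 12.9 and 12.4 CPM in the *Slc13a4*+/- mice, against 12.7, 10.7 and 14.1 CPM in the wild-type mice. The change was 0.01 on the log2 scale (SE 0.09, edgeR adjusted p 0.976), with a 95% interval of -0.20 to 0.22.

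**Figure D2:**
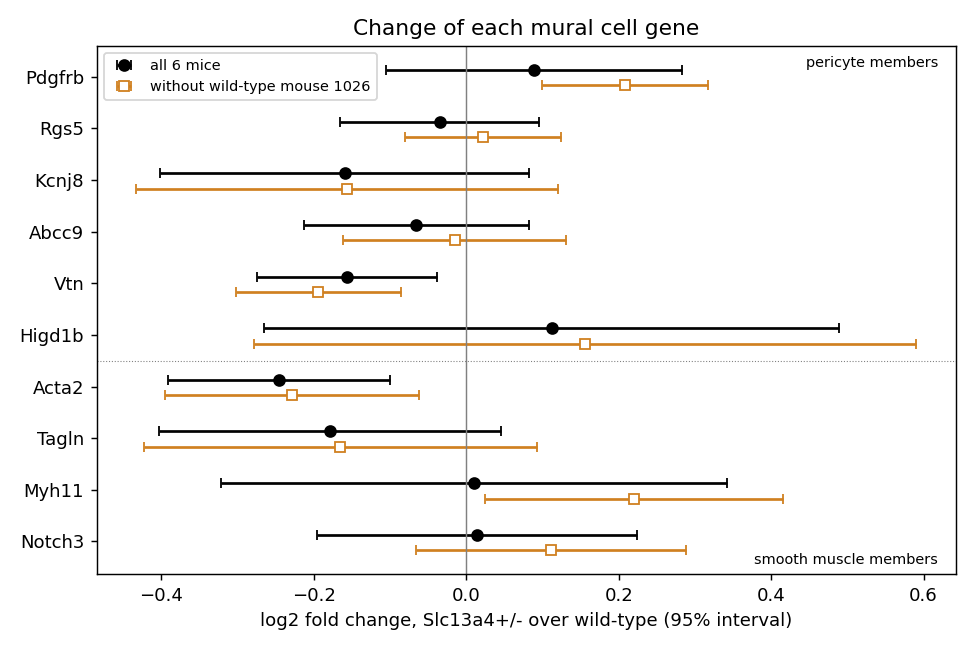
Log2 fold change of each mural gene, Slc13a4+/- over wild-type, from edgeR's quasi-likelihood fit (x axis), with 95% intervals. Black circles use all 6 mice and open squares leave out Nas2Del_WT_1026. The intervals of Acta2 and Vtn lie below 0 in both, while Pdgfrb moves to 0.21 and Myh11 to 0.22 without that mouse.

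Nas2Del_WT_1026 had the highest level of 5 of the 10 genes (*Pdgfrb*, *Rgs5*, *Abcc9*, *Myh11* and *Notch3*) and the lowest of 0, against 21.8% and 18.3% of all tested genes. Its level, centred on the mean of the 6 mice and averaged over the 10 genes, was 0.13 on the log2 scale, and the other 5 mice lay between -0.05 and 0.01. Without this mouse, 4 of the 10 genes had an unadjusted p under 0.05 in edgeR (*Pdgfrb* and *Myh11* higher, *Vtn* and *Acta2* lower), against 18.0% of all tested genes, and 0 had an adjusted p under 0.1, against 1.29%. The groups then did not overlap for 4 of the 10, against 37.2%. Without Nas2Del_WT_1016, 1 of the 10 (*Acta2*) had an unadjusted p under 0.05, against 5.91%, and without Nas2Del_Het_1027 it was also 1, against 5.67%. The SD over the 6 mice was lowest for *Rgs5* (0.08 on the log2 scale) and *Abcc9* (0.09) and highest for *Myh11* (0.21) and *Higd1b* (0.20), against a median of 0.08 over all tested genes.

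Pericyte and smooth muscle genes were then set against each other within each mouse. The mean log2 CPM of the 6 pericyte genes was 3.97, 3.86 and 3.86 in the *Slc13a4*+/- mice, against 3.86, 3.93 and 4.0 in the wild-type mice. That of the 4 smooth muscle genes was 2.60, 2.63 and 2.60 in the *Slc13a4*+/- mice, against 2.65, 2.59 and 2.85 in the wild-type mice. The pericyte mean minus the smooth muscle mean was 1.38, 1.22 and 1.26 in the *Slc13a4*+/- mice, against 1.21, 1.33 and 1.15 in the wild-type mice. The genotypes overlapped on this measure, and the group means differed by 0.06, less than the SD within either group (0.08 in the *Slc13a4*+/- mice and 0.09 in the wild-type mice, n = 3 each). Leaving out *Pdgfrb*, *Rgs5* and *Notch3* gave a difference of 0.06. No test was run on these means.

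**Figure D3:**
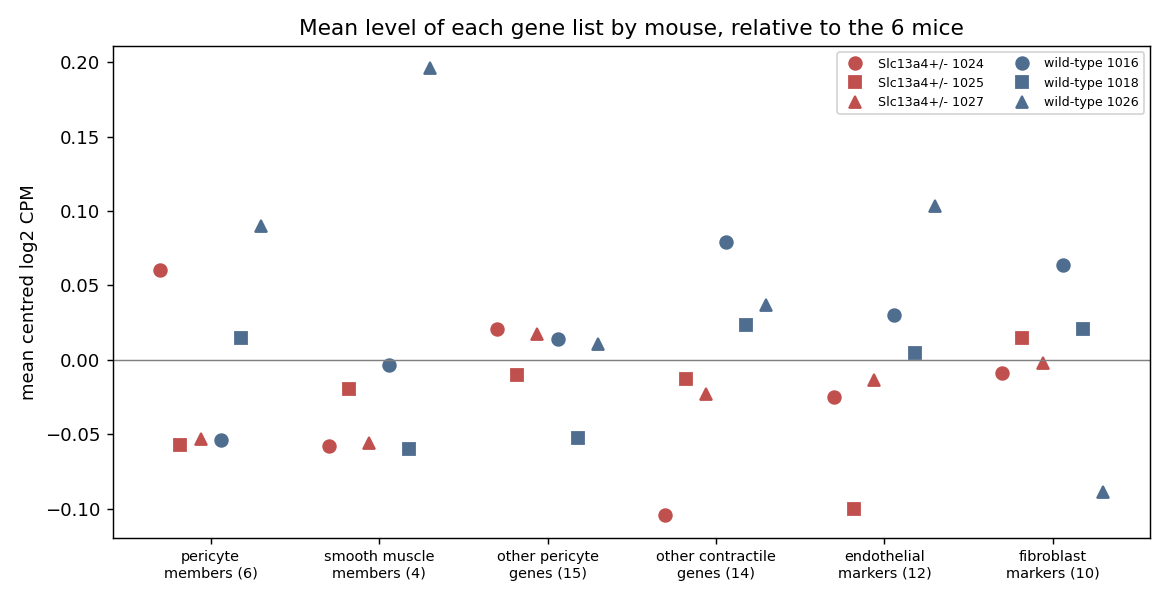
Mean centred log2 CPM (y axis, 0 is the mean of the 6 mice) of 6 gene lists (x axis) for each mouse, with Slc13a4+/- in red and wild-type in blue. Nas2Del_WT_1026 is highest for both sets of mural genes, at 0.09 and 0.20, and for the endothelial markers, at 0.10, and it is lowest for the fibroblast markers, at -0.09.

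Per length, as TPM over the 6 mice, the pericyte genes *Rgs5* (62.9 ± 3.60) and *Vtn* (62.9 ± 4.18) were the most abundant, and each was above the other in 3 of 6 mice. *Pdgfrb* (10.5 ± 1.05) and *Acta2* (9.06 ± 1.48) followed, with *Pdgfrb* above *Acta2* in 4 of 6 mice. *Higd1b* (6.17 ± 0.83) was above *Tagln* (4.78 ± 0.43) in 5 of 6 mice, and *Tagln* above *Abcc9* (4.59 ± 0.34) in 4 of 6. *Notch3* (3.40 ± 0.37) and *Kcnj8* (3.27 ± 0.41) did not keep their order either, with *Notch3* above in 4 of 6 mice. *Myh11* was the lowest in every mouse, at 1.85 ± 0.28 TPM (all SD, n = 6). The steps from *Vtn* to *Pdgfrb*, from *Abcc9* to *Notch3* and from *Kcnj8* to *Myh11* held in all 6 mice.

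Salmon divided the counts of some genes between transcripts in ways that differed from mouse to mouse. The transcript Acta2-201 (9 exons, 2035 bases) had 6.25, 5.38 and 5.94 CPM in the *Slc13a4*+/- mice, against 5.74, 6.53 and 6.86 CPM in the wild-type mice, so on this transcript alone the groups overlapped. The shorter Acta2-202 (7 exons, 826 bases) had 0, 0.946 and 0.342 CPM in the *Slc13a4*+/- mice, against 1.36, 1.10 and 0.763 CPM in the wild-type mice. Neither transcript separated the genotypes, and their sum did. The average length that the fits with offsets use for *Acta2* was 1883, 1485 and 1714 bases in the *Slc13a4*+/- mice, against 1399, 1496 and 1596 bases in the wild-type mice.

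For *Kcnj8*, whose annotated transcripts differ in their stop codon, Kcnj8-201 took 40.6%, 0% and 0% of the counts in the *Slc13a4*+/- mice, against 28.4%, 61.2% and 48.2% in the wild-type mice. Alternative last exons of *Abcc9* are known to give the SUR2A and SUR2B forms of the subunit, and the transcripts were not assigned to them here. Abcc9-203 alone ends at the stop codon at 142590368 and took 87.3% to 89.0% of the counts in every mouse. The 4 transcripts that end at 142594007 took 12.05%, 9.62% and 11.4% in the *Slc13a4*+/- mice, against 10.8%, 12.2% and 9.89% in the wild-type mice. Within these, Abcc9-206 had 0 counts in Nas2Del_WT_1016, where Abcc9-204 had 107, so the share of the ending was steadier than that of its transcripts. For *Myh11*, the transcripts that end at 14195054 on chromosome 16 took 99.7%, 89.6% and 100% in the *Slc13a4*+/- mice, against 89.5%, 97.0% and 97.6% in the wild-type mice. These shares carry the uncertainty of dividing reads between similar sequences, which was not measured here.

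**Figure D4:**
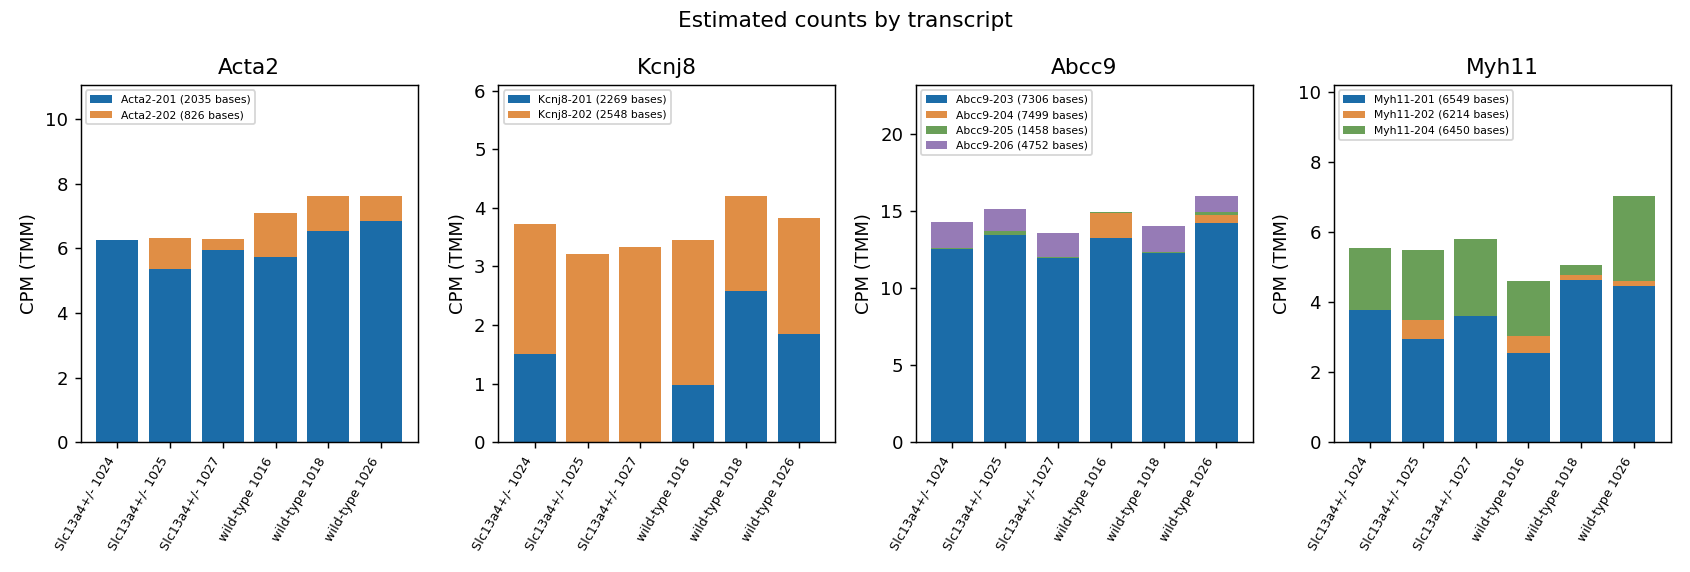
CPM of each transcript (stacked bars, y axis from 0) of Acta2, Kcnj8, Abcc9 and Myh11 in each mouse (x axis), for transcripts above 0.05 CPM in a mouse. The sum for Acta2 is level at 6.24 to 6.32 CPM in the Slc13a4+/- mice although Acta2-202 runs from 0 to 0.946 CPM, and Kcnj8-201 is at 0 in 2 of the 3.

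Promoter windows were read because contractile genes are known targets of serum response factor, which binds the CArG box, written CC, then 6 bases of A or T, then GG. RefSeq windows of the 250 bases before a transcript start (GRCm38.p6) were read for 6 of the 10 genes and 13 of 14 other contractile genes. The 6 were *Acta2*, *Notch3*, *Rgs5*, *Vtn*, *Kcnj8* and *Abcc9*. No window was read for *Tagln*, *Myh11*, *Pdgfrb* and *Higd1b*, so *Acta2* was the only contractile gene among the 6. An exact CArG box was in 0 of the 6 and in 1 of the 13, against 1.47% of all 32851 windows. With 1 other letter allowed among the 6 central bases, *Acta2* and *Myl9* each held 2, and 8.59% of all windows held at least 1. These boxes are shown in capitals, 5′ to 3′ on the strand of the gene.
Acta2, chr19:34255438-34255467, minus strand: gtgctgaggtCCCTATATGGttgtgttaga
Acta2, chr19:34255388-34255417, minus strand: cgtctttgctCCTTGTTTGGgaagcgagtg
Myl9, chr2:156775293-156775322, plus strand: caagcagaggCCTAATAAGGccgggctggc
Myl9, chr2:156775355-156775384, plus strand: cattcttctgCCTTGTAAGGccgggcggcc
The first box of *Myl9* is the exact one. The *Acta2* boxes lie 84 and 34 bases before the RefSeq start and inside exon 1 of Acta2-201 in GENCODE M21 (34255290 to 34255590). The core GTGGGAA of the Notch effector RBPJ, searched on both strands, was in 0 of the 6 mural windows and 0 of the 13 contractile ones, against 5.42% of all windows.

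Among 14 other contractile genes, 0 were called, 3 had an unadjusted p under 0.05 and were all lower, and none was higher at that level, against 4.17% lower over all tested genes. Over the list, 9 were below 0 (median -0.02), and 7 were without Nas2Del_WT_1016 or Nas2Del_WT_1026. Without Nas2Del_WT_1018, 12 were below 0 (median -0.06), and without Nas2Del_Het_1024 it was 10 (median -0.03). *Ppp1r14a*, an inhibitor of myosin phosphatase, had 6.69, 6.71 and 6.42 CPM in the *Slc13a4*+/- mice, against 7.81, 7.89 and 8.05 CPM in the wild-type mice. Its groups did not overlap, and the log2 fold change was -0.26 (SE 0.06, edgeR adjusted p 0.499). *Myl9*, a regulatory light chain of myosin, had 7.40, 7.96 and 7.54 CPM in the *Slc13a4*+/- mice, against 8.86, 8.24 and 8.36 CPM in the wild-type mice, a log2 fold change of -0.15 (SE 0.06, edgeR adjusted p 0.538). *Cnn1*, the thin filament protein calponin 1, was close to the limit of the data, at 0.180, 0.159 and 0.267 CPM in the *Slc13a4*+/- mice, against 0.300, 0.381 and 0.397 CPM in the wild-type mice (log2 fold change -0.82, SE 0.29, edgeR adjusted p 0.506). In DESeq2 with length offsets it was -0.38 (SE 0.57, adjusted p 0.992). Without Nas2Del_WT_1026 or Nas2Del_Het_1024, 1 of the 14 was lower at an unadjusted p under 0.05, and without any of the other mice it was 2. Over all tested genes, 1491 of 17337 were lower at that level without Nas2Del_WT_1026 and 452 of 17309 without Nas2Del_Het_1024.

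The regulators of these genes showed no difference past the threshold. Of *Srf*, *Myocd*, *Mrtfa* and *Mrtfb*, 0 were called and 0 had an unadjusted p under 0.05, while 1 was higher at that level without Nas2Del_WT_1026 and 1 lower without Nas2Del_WT_1018. Over all tested genes, 1635 of 17337 were higher without Nas2Del_WT_1026 and 562 of 17357 lower without Nas2Del_WT_1018. *Srf* itself, which encodes serum response factor, had 34.3 ± 0.77 CPM in the *Slc13a4*+/- mice and 35.4 ± 3.0 CPM in the wild-type mice (SD, n = 3 each). Of 15 other pericyte genes, 0 were called, 9 were above 0 and 6 below (median 0.00). *Anpep*, the aminopeptidase CD13 of pericytes, was the 1 with an unadjusted p under 0.05, at 2.07, 2.56 and 1.87 CPM in the *Slc13a4*+/- mice, against 1.70, 1.37 and 1.86 CPM in the wild-type mice (log2 fold change 0.39, SE 0.16, edgeR adjusted p 0.537). Over the list, 0 genes reached that level without Nas2Del_Het_1024, Nas2Del_Het_1025, Nas2Del_WT_1016 or Nas2Del_WT_1018. Without Nas2Del_WT_1026, 2 were higher, *Anpep* and *Cspg4* (0.17 on the log2 scale), against 1635 of 17337 over all tested genes. *Cspg4* is also in the list of oligodendrocyte precursor markers, so its value cannot be read as that of pericytes alone. *Ndufa4l2* (-0.25, SE 0.14) and the pericyte marker *Atp13a5* (0.11, SE 0.06) both had an edgeR adjusted p of 0.621.

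Ligands and receptors that act on mural cells were read next. *Pdgfb*, the endothelial and neuronal ligand of the receptor *Pdgfrb*, had 23.7, 23.9 and 24.3 CPM in the *Slc13a4*+/- mice, against 30.5, 26.8 and 26.8 CPM in the wild-type mice. The groups did not overlap, and the log2 fold change was -0.23 (SE 0.05, edgeR adjusted p 0.499). It was -0.26 without Nas2Del_WT_1026 (adjusted p 0.102) and -0.16 without Nas2Del_WT_1016 (adjusted p 0.814). None of the 5 PDGF genes was called, and the other 4 had no unadjusted p under 0.05, with *Pdgfa* at -0.06 and *Pdgfd* at -0.09. Without Nas2Del_WT_1026, 1 PDGF gene, *Pdgfra*, was higher at that level (0.10), against 1635 of 17337 over all tested genes. *Pdgfra* is also in the lists of fibroblast and oligodendrocyte precursor markers, so it is counted in each of them. Of 5 angiopoietin genes, *Angpt2*, a ligand of the receptor *Tek*, had 2.95, 3.70 and 3.81 CPM in the *Slc13a4*+/- mice, against 4.67, 3.87 and 4.17 CPM in the wild-type mice (log2 fold change -0.28, SE 0.12, edgeR adjusted p 0.542), and 0 were called. No angiopoietin gene had an unadjusted p under 0.05 without Nas2Del_Het_1024, Nas2Del_WT_1016 or Nas2Del_WT_1026.

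Among 13 Notch genes, 7 were above 0 (median 0.01), and edgeR had 0 calls and 0 genes at an unadjusted p under 0.05, with 1 higher at that level without Nas2Del_WT_1026. Without Nas2Del_WT_1018, 5 of the 13 were above 0. *Heyl*, a target of *Notch3*, had a log2 fold change of 0.16 (SE 0.11, edgeR adjusted p 0.673), and the ligand *Jag1* one of 0.07 (SE 0.07, adjusted p 0.785). DESeq2 with length offsets called *Rbpj*, the DNA-binding partner of Notch, higher at 0.27 (adjusted p 0.0356), while edgeR without offsets gave it 0.03 (adjusted p 0.842). Of 11 TGF-beta genes, 8 were below 0 (median -0.03), with 0 called and 0 at an unadjusted p under 0.05. Without Nas2Del_WT_1026 the direction of the TGF-beta list turned, with 6 above 0 (median 0.016) and 2 lower at an unadjusted p under 0.05, *Tgfbr1* (-0.13) and *Smad3* (-0.15). Of 12 vasoactive genes, 0 were called and 2 had an unadjusted p under 0.05, both lower. These were the endothelin receptor *Ednrb*, which astrocytes also express, at a log2 fold change of -0.13 (SE 0.04, edgeR adjusted p 0.499), and *Nos3*, the endothelial nitric oxide synthase, at -0.22 (SE 0.08, adjusted p 0.5002). Without Nas2Del_WT_1026, 3 vasoactive genes were higher and 3 lower at that level, and edgeR called 1, the soluble guanylate cyclase gene *Gucy1a1*, higher (0.23, adjusted p 0.0792, against 0.14 over all 6 mice). Over all tested genes, that fit had 1635 of 17337 higher and 1491 lower at that level, and 1.29% called. Of 4 other RGS genes, *Rgs16* alone had an unadjusted p under 0.05, at -0.15 (SE 0.06, edgeR adjusted p 0.524), and none did without Nas2Del_Het_1024, Nas2Del_Het_1027, Nas2Del_WT_1016 or Nas2Del_WT_1018.

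Markers of neighbouring cell types were read beside these values. Of 12 endothelial markers, 10 were below 0 (median -0.10), 3 were lower at an unadjusted p under 0.05 and 0 were called. Without Nas2Del_WT_1018, 5 were lower at that level, and without Nas2Del_WT_1026, 4 were lower and 1 higher. Over all tested genes, 562 of 17357 were lower at that level without Nas2Del_WT_1018. Without Nas2Del_WT_1026, 1491 of 17337 were lower and 1635 higher. Summed over the list, the *Slc13a4*+/- mice had 335 to 356 CPM and the wild-type mice 360 to 383 CPM, with none at 0 in any mouse. *Flt1*, a VEGF receptor, stood at -0.19 on the log2 scale (SE 0.05) and the tight junction gene *Cldn5* at -0.22 (SE 0.06), both with an edgeR adjusted p of 0.499. Of 10 fibroblast markers, 6 were below 0 (median -0.01), with sums of 305 to 315 CPM for *Slc13a4*+/- and 299 to 310 CPM for wild-type. The collagen gene *Col1a2* was the 1 with an unadjusted p under 0.05, at 0.09 (SE 0.03, edgeR adjusted p 0.518), and 2 fibroblast markers were higher and 2 lower at that level without Nas2Del_WT_1026, against 0 without Nas2Del_Het_1024, Nas2Del_Het_1027 or Nas2Del_WT_1018. The 2 higher ones were *Col1a2* and *Pdgfra*, which is also in the PDGF list. The part of vascular cell number in the values of *Acta2*, *Vtn* and *Pdgfb* was not tested.

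Over all 6 mice, the lists of brain and blood cell types had edgeR calls of 0 as well. The median log2 fold change was -0.18 for 9 choroid plexus markers and -0.14 for 8 microglial markers, all of them below 0, with 4 and 3 at an unadjusted p under 0.05. It was -0.15 for 5 macrophage markers, -0.09 for 8 astrocyte markers, -0.14 for 6 oligodendrocyte markers and -0.13 for 5 markers of their precursors, with 1, 4, 2 and 2 lower at that level. Over all tested genes, 4.17% were lower at that level. Over all lists other than the Notch genes, DESeq2 with length offsets called 2 genes, *Ttr* of the choroid plexus (-0.22, adjusted p 0.0921) and *S100b* of astrocytes (-0.24, adjusted p 0.0441), both lower. The median was -0.0043 for 8 neuronal markers and -0.15 for 5 erythroid genes, with 0 at an unadjusted p under 0.05 in either, and no marker of these lists was at 0 in any mouse. All 6 oligodendrocyte markers and all 5 erythroid genes had log2 fold changes below 0 as well, against 52.2% of all tested genes.

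These counts moved with single mice. Without Nas2Del_WT_1026, edgeR called 2 astrocyte markers (*Gfap*, adjusted p 0.0916, and *S100b*, adjusted p 0.0978), 1 oligodendrocyte marker (*Mog*, adjusted p 0.0824) and 1 erythroid gene (*Alas2*, adjusted p 0.0916), all lower. Without that mouse, 5 microglial, 3 macrophage, 5 oligodendrocyte and 5 erythroid genes were lower at an unadjusted p under 0.05, the erythroid median was -0.32, and 2 neuronal markers were higher and 2 lower. Of the precursor markers, 3 were then lower and 2 higher. The 2 higher ones were *Pdgfra* and *Cspg4*, which are also counted in other lists above. Over all tested genes, that fit called 1.29%, and 1491 of 17337 were lower and 1635 higher at that level. Without Nas2Del_WT_1016, 0 oligodendrocyte, 0 precursor, 0 macrophage and 2 astrocyte markers were lower at that level, against 398 of 17322 tested genes. Without Nas2Del_Het_1027 it was 0 oligodendrocyte, 0 precursor, 0 macrophage, 2 astrocyte and 1 choroid plexus markers, against 354 of 17281. Without Nas2Del_WT_1018 it was 1 choroid plexus, 1 oligodendrocyte, 1 precursor and 0 macrophage markers, against 562 of 17357, and the erythroid median was 0.00. Without Nas2Del_Het_1024, 1 precursor and 0 macrophage markers were lower, against 452 of 17309. All 8 microglial and all 6 oligodendrocyte markers stayed below 0 whichever mouse was left out.

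The tested genes whose centred log2 CPM over the 6 mice lay nearest to the mean profile of the pericyte genes were *Plcb3*, *Lurap1*, *Gm48663*, *Cwf19l1* and *Scrg1*, with a root mean square difference of 0.02. A flat profile would differ by 0.06, and 12.8% of tested genes lay nearer than that. For the smooth muscle genes they were *Grik3*, *Sncaip*, *Zfp609*, *Pcdh1* and *Ubqln2*, also at 0.02, against 0.09 for a flat profile, and 23.9% of tested genes lay nearer than that. All 10 were highest in Nas2Del_WT_1026. This follows largely from how they were chosen, because that mouse also held the highest mean of both sets of mural genes.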

How the data were processed

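Forebrain RNA of 6 mice was sequenced by the authors as stranded, rRNA-depleted, paired-end libraries and quantified with Salmon 1.2.0 (mapping validation and gcBias options). The authors deposited, for each of 117135 transcripts, an estimated count that need not be whole, a TPM value scaled by transcript length, and the effective length. Which transcript set and build the index held is not stated in the labels or methods (not given in the sources used here). Identifiers were matched without version to GENCODE M21 (GRCm38), which placed 115973 transcripts in 35523 genes, and 1162 unmatched ones, with 0.620% to 0.645% of each library, were not used. Estimated counts were summed per gene and rounded.

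Groups were compared in R 4.3.3 by the quasi-likelihood F-test of edgeR 4.0.16, using filterByExpr, TMM normalization and Benjamini-Hochberg adjustment over 17096 genes, at the adjusted p threshold of 0.1 that the paper names. The paper's DESeq2 Wald test (DESeq2 1.42.0), with average transcript lengths as offsets, was an alternative. Intervals of 95% use the t quantile of the fit. CPM on the log2 scale used a prior count of 2. Counts limit the precision of the rarest genes, and mice differed by more than sampling noise (chi-square per gene at least 6.55), so none was taken for a copy. Scripts were tested on simulated data. The members, gene lists and tests were chosen with earlier results of these data known. Named genes are the 10 members, *Slc13a4*, up to 3 genes of each mural or pathway list and up to 2 endothelial and fibroblast markers with the smallest p, those called, and the 5 genes nearest each profile. Some of those the rule takes are given only in the counts of their lists. *Pdgfra* and *Cspg4* are also named, and each is in more than 1 list. Neither litter nor sex of a mouse is known from the labels, and sex was read from *Ddx3y* alone. Alternatives were other normalizations, filters, offsets and transcript sets, and leaving out each mouse. Promoter sequences are from RefSeq (GRCm38.p6).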

Additional observations from a re-analysis of the deposited data

How the results depend on the processing

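Under edgeR with RLE, other filters, length offsets, protein-coding transcripts only or no retained-intron transcripts, and under DESeq2 over all 6 mice, 0 of the 10 mural genes were called, 2 had an unadjusted p under 0.05, and 2 had groups that did not overlap. For edgeR with length offsets, overlap was read on the CPM of the main fit, so that count could not differ. Leaving out 1 mouse at a time, and adding after seeing the data DESeq2 with length offsets without Nas2Del_WT_1016 or Nas2Del_WT_1026, 0 to 2 mural genes were called, 1 to 4 had an unadjusted p under 0.05, and 2 to 5 had groups that did not overlap. The highest counts came without Nas2Del_WT_1026, where DESeq2 gave 5 of the 10 an adjusted p and called *Vtn* lower (-0.20) and *Pdgfrb* higher (0.20). That fit gave no adjusted p to *Acta2* (-0.45), *Tagln*, *Myh11*, *Kcnj8* and *Higd1b*, so it could not call them. Of all tested genes, edgeR without that mouse had 37.2% with groups that did not overlap and 18.0% at an unadjusted p under 0.05. DESeq2 without Nas2Del_WT_1026 called 6.54% of the 11013 genes that it gave an adjusted p, and its share of genes without overlap was not computed. The difference of the pericyte minus the smooth muscle mean was 0.01 to 0.11 in these fits, and 0.10 as log2(TPM + 0.1). The number of genes called over the whole table was 86 in DESeq2 with length offsets, 55 in DESeq2 with size factors, 0 in edgeR with length offsets and 147 without a filter on low counts. It ran from 1 to 720 when 1 mouse was left out, with 720 in DESeq2 and 223 in edgeR without Nas2Del_WT_1026, and 34 in DESeq2 without Nas2Del_WT_1016. The cause was not tested.

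Directions turned for 5 of the 10 genes, each time in a fit that left out 1 mouse. Leaving out 1 mouse in edgeR gave -0.014 to 0.19 for *Higd1b*, -0.069 to 0.022 for *Rgs5*, -0.086 to 0.11 for *Notch3* and -0.11 to 0.22 for *Myh11*. DESeq2 with length offsets gave 0.044 for *Abcc9* and 0.015 for *Rgs5* without Nas2Del_WT_1026, and -0.12 for *Myh11* without Nas2Del_WT_1016. *Acta2*, *Tagln*, *Kcnj8* and *Vtn* stayed below 0 and *Pdgfrb* above 0 in every alternative run. No analysis paired or blocked by litter was possible, because the labels do not give the litter of any mouse.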
